A study of Mus musculus with 6 samples.

Results

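The nuclear receptor genes of mouse pancreatic islets were followed in control tissue and after conditional knockout of Bcas2, a subunit of a spliceosome complex. The members are the protein-coding genes of the deposited expression table whose symbols belong to the nuclear receptor families, with the Nr4a and Nr1d genes left out. They number 42 of 54532 genes in the table. The samples are RNA-seq libraries of pancreas islet labelled as beta cell, with genotype wt in 3 control libraries (numbers 1, 3 and 4) and genotype Cko in 3 Bcas2 cKO libraries. The table numbers the Bcas2 cKO libraries 3, 4 and 5, whereas the labels number them 1, 3 and 4, so library 5 was used as a member of its group with no label of its own. No label used here gives the Cre driver, which part of Bcas2 was deleted, or the strain, age and sex of the mice. The labels do not tie the libraries to separate animals. The p-values therefore reflect the spread among these libraries, which may be technical.

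Nuclear receptors are transcription factors that bind DNA through a pair of zinc fingers, and many of them are switched by a small fat-soluble ligand that enters their ligand-binding domain. Steroid receptors wait in complexes with heat shock proteins and bind DNA as homodimers, whereas receptors for retinoic acid, thyroid hormone, vitamin D, oxysterols and fatty acids bind DNA with a retinoid X receptor (RXR) as partner. Orphan members have no agreed natural ligand. In islets the family links insulin secretion to lipids, sterols, glucocorticoids and vitamins, and HNF4A is a known gene of inherited diabetes.

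The stretch that reads the DNA sequence lies at the base of the first zinc finger and is called the P-box. The coding sequence from the first cysteine of that finger to the end of the P-box is given for 4 receptor genes. They are 4 of the 7 that differed between the groups, and the sequence is read 5′ to 3′ from GENCODE M21 transcripts. Capitals mark the 15 bases that code for the P-box.
Nr1h2: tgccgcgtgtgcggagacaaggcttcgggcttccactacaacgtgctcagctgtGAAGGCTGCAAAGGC
Nr6a1: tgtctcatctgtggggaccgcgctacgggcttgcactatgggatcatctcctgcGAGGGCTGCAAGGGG
Nr1h3: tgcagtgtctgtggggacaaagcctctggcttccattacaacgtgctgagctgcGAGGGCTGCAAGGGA
Esrrg: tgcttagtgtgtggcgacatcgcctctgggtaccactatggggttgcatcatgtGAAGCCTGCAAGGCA
Nr1h2 and Nr1h3, the closest pair among these, were identical at 55 of the 69 bases.

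Each library held 15170439 to 16904326 reads on genes. The share that fell on nuclear receptor genes was 0.0992 to 0.110% in control against 0.116 to 0.125% in Bcas2 cKO, and the groups did not overlap. Their summed level was 205.8 to 219.0 FPKM (reads scaled to gene length and library depth) in control, against 225.7 to 233.8 in Bcas2 cKO. Both measures also depend on the reads that other genes take, such as the beta cell markers below, and that part was not tested. Gene by gene there was no common rise: of the 24 members tested below, 11 had a positive and 13 a negative log2 fold change. Bcas2 itself was 10.3, 15.04 and 11.2 FPKM in control libraries 1, 3 and 4 and 8.76, 8.40 and 9.14 FPKM in Bcas2 cKO libraries 3, 4 and 5, with a limma adjusted p of 0.083. Beta cell markers, of which 10 of 10 were at or above 1 FPKM, held 20.5 to 28.8% of control reads against 14.6 to 16.0% of Bcas2 cKO reads. Markers of alpha, delta and PP cells (10 of 10) held 3.69 to 3.82% and 4.59 to 4.98%. Acinar markers (18 of 20 at or above 1 FPKM; Prss1 at 0 in at least 1 library) took 0.523 to 1.31% and 1.71 to 4.92%, ductal markers (8 of 11; Cftr at 0 in at least 1) 0.0621 to 0.0658% and 0.117 to 0.138%, and macrophage and lymphocyte markers (9 of 12; Cd3e and Itgam at 0 in at least 1) 0.0127 to 0.0148% and 0.0178 to 0.0227%. The summed shares of these 5 lists moved with the groups, and their part in the results on nuclear receptors was not tested. In the test below, 3 of the 10 beta cell markers fell and none rose. Ins1 and Ins2 did not pass (limma adjusted p 0.44 and 0.38). Mafa was higher in Bcas2 cKO without overlap (349 against 228 FPKM, limma adjusted p 0.090). In the other lists none fell. Rises were 1 of 10 (alpha, delta and PP), 6 of 18 (acinar), 2 of 8 (ductal) and 5 of 9 (macrophage and lymphocyte). Of all genes tested, 6.97% rose and 7.55% fell. In bulk tissue, fewer cells of a type and less RNA per cell cannot be told apart.

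Of the 42 receptor genes, 24 reached a 6-library mean of 1 FPKM and were tested. Vdr, the vitamin D receptor, had the highest mean, 44.3 FPKM. Nr1h2, which encodes the oxysterol receptor LXR beta, followed at 30.02 FPKM, then Thra (thyroid hormone receptor alpha, 16.2), Nr3c1 (the glucocorticoid receptor, 14.7), Rxrb (14.3), Rxra (10.8) and Esrra (10.1). The other 17 tested genes lay between 1.69 and 8.70 FPKM, and the 18 genes below the filter had means of at most 0.530 FPKM. In this order of levels, 22 of the 23 neighbouring pairs had overlapping library values, and the exception was the gap between Nr1h2 and Thra. Vdr alone made up 17.2 to 21.7% of the summed level of the family.

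**Figure D1:**
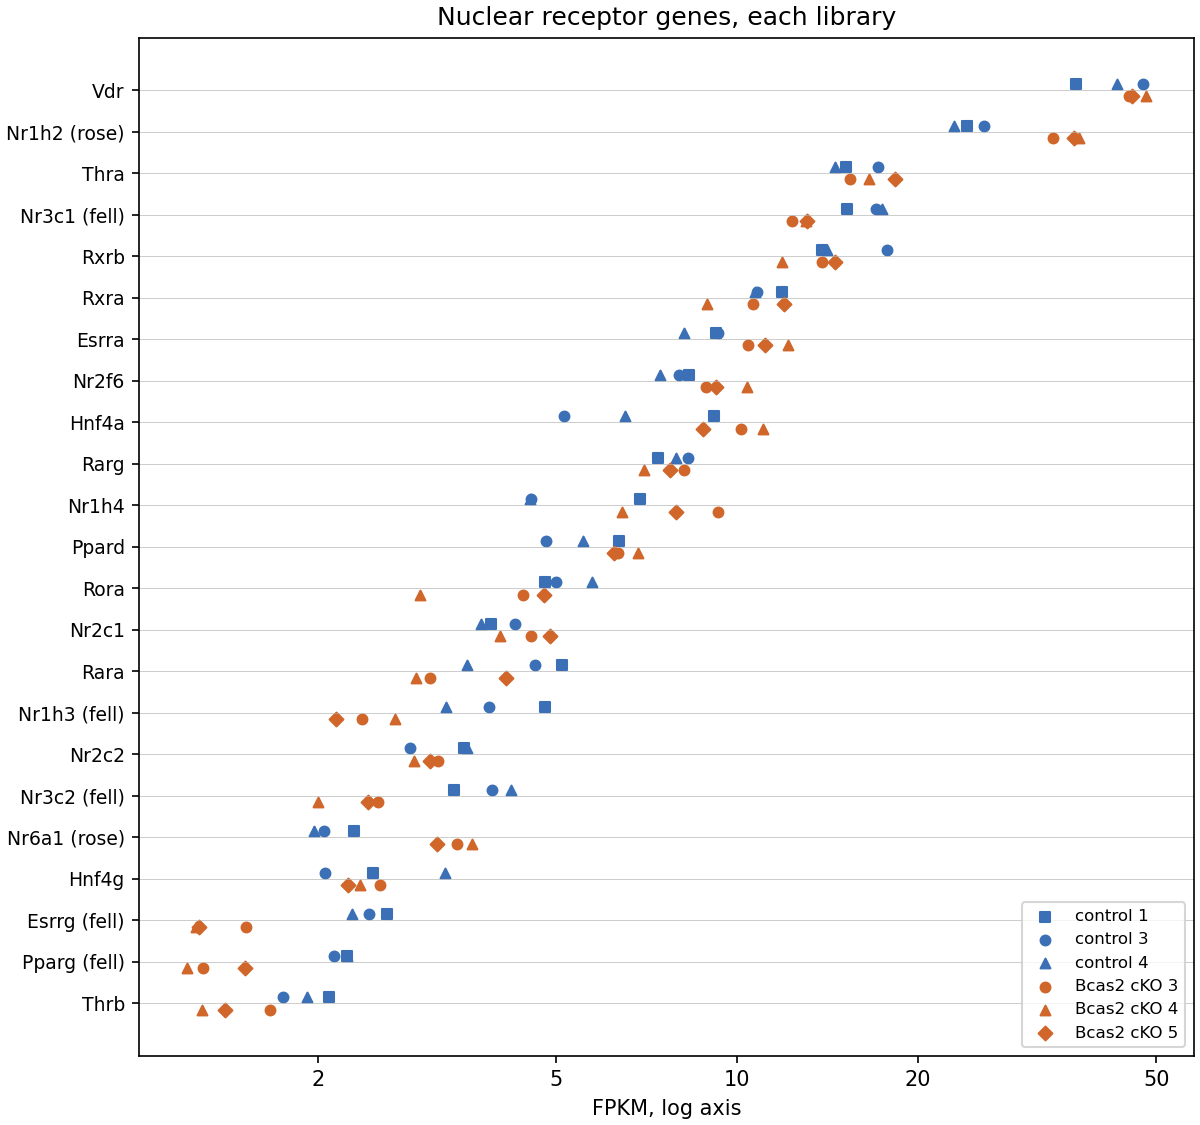
FPKM (log axis) of 23 of the 24 tested nuclear receptor genes in each of the 6 libraries, ordered by mean level, with control in blue and Bcas2 cKO in orange. Vdr and Nr1h2 stand at the top, and the groups do not overlap in 11 genes: the 7 marked as rose or fell, and Esrra, Nr2f6, Rora and Thrb, which did not pass the test.

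Nuclear receptor transcripts moved in both directions in Bcas2 cKO, by less than 2-fold in each called gene. Of the 24 tested, 2 rose (Nr1h2 and Nr6a1) and 5 fell (Nr1h3, Nr3c1, Nr3c2, Esrrg and Pparg) at an adjusted p under 0.05 (limma with trend on log2(FPKM + 1), Benjamini-Hochberg over all genes tested), and 17 did not pass. After rescaling without the hormone genes, 1 rose and 5 fell. These 7 are 29.2% of the tested members, beside 14.5% of the 13723 genes tested in all, 6.97% that rose and 7.55% that fell. The 3 control and 3 Bcas2 cKO values did not overlap in 11 of the 24 genes (45.8%), 4 higher and 7 lower in Bcas2 cKO, against 38.0% of all genes tested. The median log2 fold change of the 24 was -0.06 and that of all genes tested was -0.03. On the log2(FPKM + 1) scale the called changes were 0.35 to 0.55 in absolute value, against a median of 0.59 over all called genes. This scale understates changes of low genes, so these values do not rank the receptor genes against other called genes. The ratio of mean FPKM, Bcas2 cKO over control, was 0.55 for Esrrg, 0.60 for Nr1h3 and Nr3c2 and 0.61 for Pparg. It was 0.77 for Nr3c1, 1.47 for Nr1h2 and 1.61 for Nr6a1. The 7 calls dropped to 2 without control library 3, control library 4, Bcas2 cKO library 3 or Bcas2 cKO library 5, and to 1 without Bcas2 cKO library 4. Without control library 1, 7 genes were called (4 rose and 3 fell), but not the same 7. Nr1h3 and Pparg lost their calls there, and Hnf4a and Nr1h4 gained 1 each. Nr1h2 was the gene that kept its call without each library in turn.

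**Figure D2:**
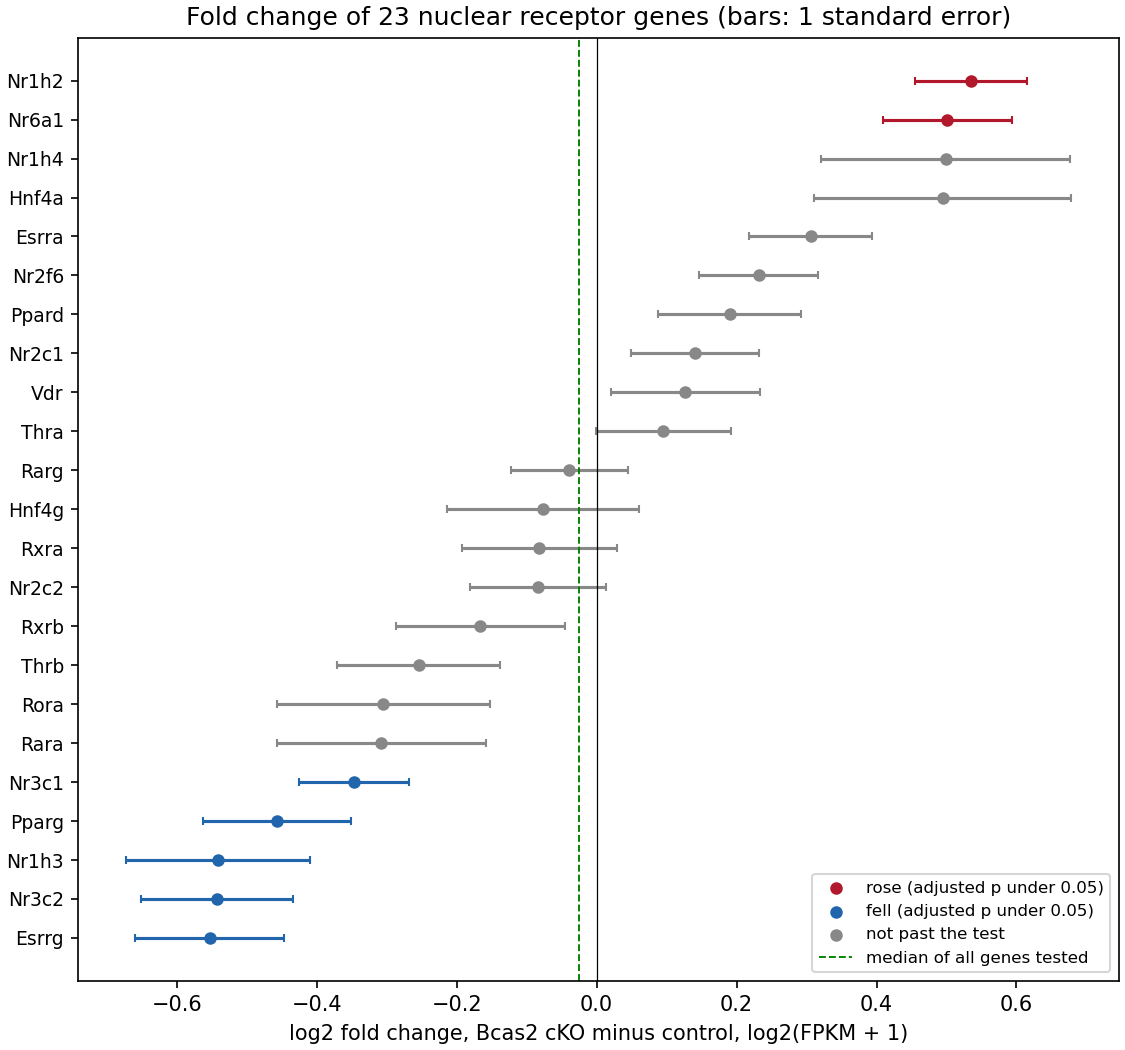
Log2 fold change on the log2(FPKM + 1) scale, Bcas2 cKO minus control, of 23 of the 24 tested nuclear receptor genes, with bars of 1 standard error (n = 3 libraries per group) and colours for genes past the test. On this scale, which understates changes of low genes, Esrrg is lowest at -0.55 and Nr1h2 highest at 0.54. The dashed line is the median of all genes tested, -0.03.

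Grouped by the first 4 residues of the P-box, the 18 tested genes with the most common type held both rises and 2 of the falls. The pair with the steroid type, Nr3c1 and Nr3c2, fell, and of the pair with the estrogen-related receptor type, Esrrg fell and Esrra did not pass the test. Hnf4a and Hnf4g, which have a type of their own here, did not pass. These classes hold few genes and no difference between them was tested.

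The oxysterol receptors moved in opposite directions. LXR alpha and LXR beta sense oxidised cholesterol and switch on genes of cholesterol export and fatty acid synthesis. Nr1h2 (LXR beta; ENSMUSG00000060601, chromosome 7, 44549616 to 44553951, GRCm38) was 24.1, 25.8 and 23.02 FPKM in control libraries 1, 3 and 4 and 33.6, 37.1 and 36.4 FPKM in Bcas2 cKO libraries 3, 4 and 5. Every Bcas2 cKO library lay above every control library. The means were 24.3 ± 1.42 and 35.7 ± 1.84 FPKM (SD, n = 3 each), a log2 fold change of 0.54 (SE 0.08, limma adjusted p 0.0090).

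Nr1h3 (LXR alpha; ENSMUSG00000002108, chromosome 2, 91184061 to 91202834) was 4.79, 3.86 and 3.28 FPKM in control against 2.37, 2.69 and 2.14 in Bcas2 cKO. The control libraries were the higher 3, with means of 3.97 ± 0.763 and 2.40 ± 0.274 FPKM and a log2 fold change of -0.54 (SE 0.13, limma adjusted p 0.038). Its call was lost without control libraries 1 (adjusted p 0.067) or 3 (0.089), or Bcas2 cKO libraries 3 (0.11), 4 (0.072) or 5 (0.11). LXR alpha is also a receptor of macrophages, whose markers took a higher share of reads in Bcas2 cKO, as given above, and their part in its level was not tested. Nr1h4, the bile acid receptor FXR and a relative of the LXRs, was 4.52 to 6.90 FPKM in control against 6.44 to 9.29 in Bcas2 cKO and missed the threshold (log2 fold change 0.50 with SE 0.18, limma adjusted p 0.11). It passed without control library 1.

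The window of 250 bases upstream of the RefSeq start of Nr1h2 (GRCm38.p6, chr7:44553966-44554215, minus strand) is shown because this gene had the call that held without each library in turn. It lies outside the coordinates of Nr1h2 given above, and its overlap with exons of other genes is not reported.
Nr1h2: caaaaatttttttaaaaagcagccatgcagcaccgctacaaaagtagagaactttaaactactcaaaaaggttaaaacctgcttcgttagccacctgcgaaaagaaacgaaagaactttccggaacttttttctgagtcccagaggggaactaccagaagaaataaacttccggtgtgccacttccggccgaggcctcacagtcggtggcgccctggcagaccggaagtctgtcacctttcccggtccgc
The upstream windows were searched on both strands for the receptor core site AGGTCA, the GC box GGGCGG, the TATA box letters TATAAA, the E-box CACGTG and the cyclic AMP element TGACGTCA. The Nr1h2 window, of which 48.4% is G or C, held none of the 5 motifs. These letters occur in 14.0%, 32.7%, 12.4%, 6.02% and 1.55% of 32817 windows of the same length, in the order given.

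Of the 11 tested target genes of the LXRs, Abca1, which exports cholesterol from cells, fell, none rose and 10 did not pass the test, with a median log2 fold change of 0.08. Over all genes tested, 6.97% rose and 7.55% fell, and these shares stand beside each list below. Abca1 was 23.1, 18.4 and 27.1 FPKM in control against 14.7, 12.1 and 13.7 in Bcas2 cKO (-0.71, SE 0.15, limma adjusted p 0.023). Srebf1, the lipogenic transcription factor that LXRs induce, had means of 27.2 and 36.9 FPKM and did not pass (adjusted p 0.057; chosen after its values were seen). Of the FXR axis, none of the genes outside the family reached a mean of 1 FPKM.

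Both corticosteroid receptors fell. They bind glucocorticoids and, for the mineralocorticoid receptor, aldosterone. Nr3c1 (the glucocorticoid receptor; ENSMUSG00000024431, chromosome 18, 39410545 to 39491301) was 15.3, 17.1 and 17.4 FPKM in control against 12.4, 13.01 and 13.1 in Bcas2 cKO. The groups did not overlap, with means of 16.6 ± 1.17 and 12.8 ± 0.393 FPKM and a log2 fold change of -0.35 (SE 0.08, limma adjusted p 0.031). Nr3c2 (the mineralocorticoid receptor; ENSMUSG00000031618, chromosome 8, 76899442 to 77245012) was 3.38, 3.90 and 4.21 FPKM in control against 2.52, 2.001 and 2.43 in Bcas2 cKO. Its groups did not overlap either, with a log2 fold change of -0.54 (SE 0.11, limma adjusted p 0.022). The call of Nr3c1 was lost without control libraries 3 (adjusted p 0.073) or 4 (0.095), or Bcas2 cKO libraries 3 (0.11), 4 (0.082) or 5 (0.083). That of Nr3c2 was lost without control libraries 3 (0.060) or 4 (0.074), or Bcas2 cKO libraries 3 (0.052), 4 (0.065) or 5 (0.058).

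Among the chaperones that hold steroid receptors ready for hormone, St13, an HSP70-interacting cochaperone, fell from 17.3 ± 3.22 to 9.99 ± 0.962 FPKM (log2 fold change -0.73, limma adjusted p 0.020) and 9 of 10 did not pass. The list's median was -0.31, and 1 of its 10 members had a positive fold change. Of 13 tested targets of the glucocorticoid receptor, 5 rose, none fell and 8 did not pass, beside 6.97% of all tested genes that rose. Their median log2 fold change was 0.34, and 11 of the 13 values were positive. Dusp1, a phosphatase of MAP kinases, rose from 107 ± 42.5 to 389.5 ± 30.7 FPKM and Nfkbia, the inhibitor of NF-kB, from 41.9 ± 6.06 to 132 ± 16.8 FPKM. Per1, a clock gene, rose from 28.7 ± 6.34 to 70.3 ± 15.2 FPKM and Errfi1, an inhibitor of EGF receptor signalling, from 33.8 ± 6.87 to 87.8 ± 33.8 FPKM. Early-response genes such as these are induced by many stimuli other than glucocorticoids. The fifth target that rose was Sgk1, a kinase that acts on ion transport, at 8.50 ± 2.49 and 15.8 ± 2.92 FPKM (a difference of 0.84 on the log2 scale, SE 0.20, limma adjusted p 0.037; named after its values were seen).

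**Figure D3:**
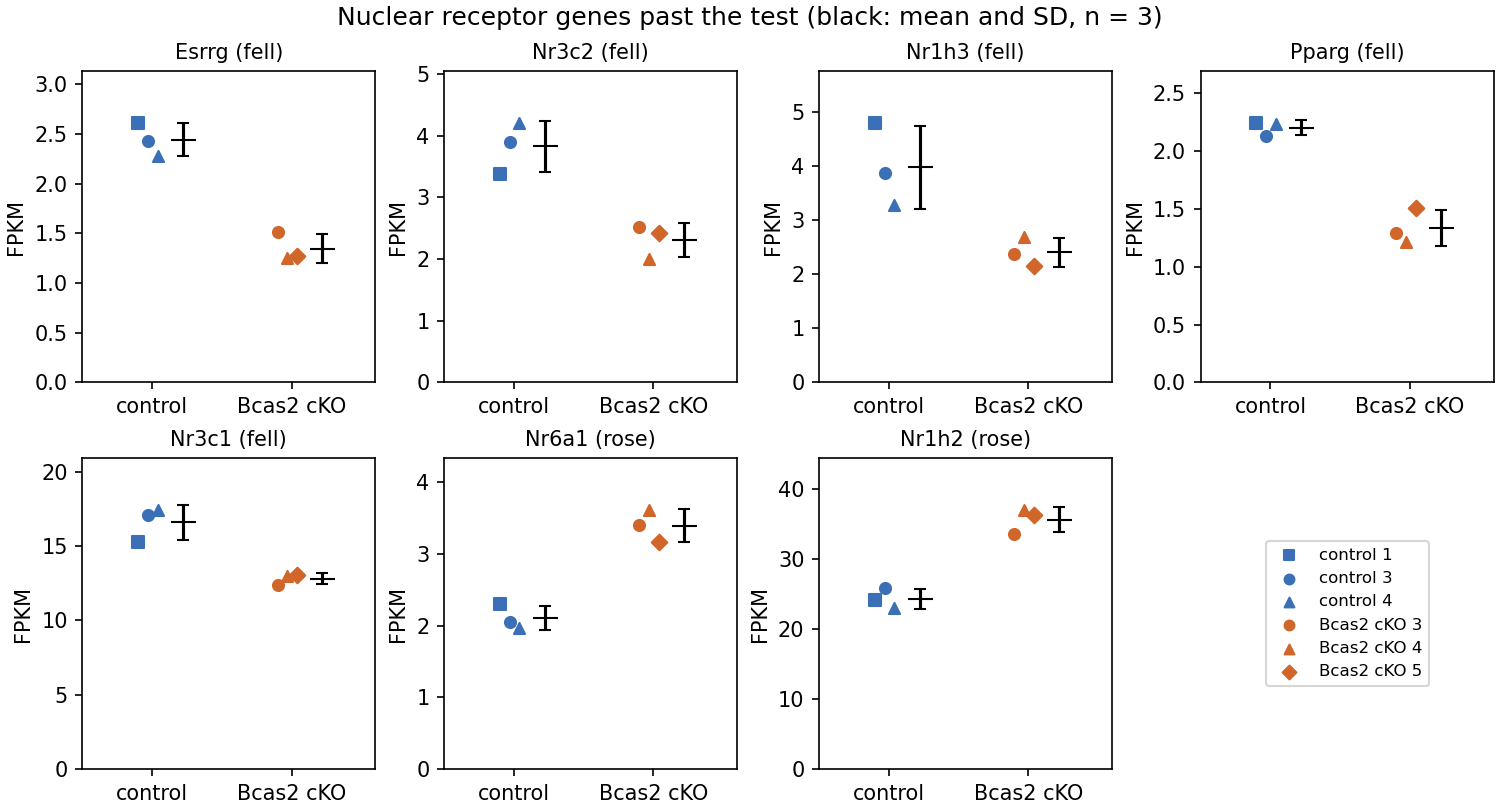
FPKM in each library of the 7 nuclear receptor genes past the test, each panel starting at 0, with control in blue, Bcas2 cKO in orange and the mean ± SD (n = 3) in black. No Bcas2 cKO value overlaps the control values in any panel; Nr1h2 spans 23.02 to 25.8 FPKM in control against 33.6 to 37.1 in Bcas2 cKO.

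Among the peroxisome proliferator-activated receptors, which bind fatty acids, Pparg fell and Ppard did not pass the test. Pparg (ENSMUSG00000000440, chromosome 6, 115360951 to 115490399), the receptor of fat cell formation and the target of thiazolidinedione drugs, was 2.24, 2.13 and 2.24 FPKM in control against 1.29, 1.21 and 1.51 in Bcas2 cKO. The 3 control values lay close together and above the others (log2 fold change -0.46, SE 0.11, limma adjusted p 0.034). It rested on a mean of 82.7 reads per library, the fewest of the tested members. Its call was lost when any 1 of the 6 libraries was left out (adjusted p 0.064 to 0.10). Ppard, the widely expressed member, was 4.81 to 6.35 FPKM in control against 6.23 to 6.83 in Bcas2 cKO (log2 fold change 0.19, limma adjusted p 0.25). Of 16 tested PPAR targets, Ehhadh, a peroxisomal enzyme of fatty acid oxidation, rose from 5.11 ± 0.908 to 11.6 ± 2.10 FPKM (log2 fold change 1.04, limma adjusted p 0.0090). The other 15 did not pass, and the list's median was 0.02.

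The estrogen-related receptors are orphan receptors that drive genes of mitochondrial respiration, and Esrrg is known for its rise as beta cells mature after birth. Esrrg (ENSMUSG00000026610, chromosome 1, 187608791 to 188214885) fell, from 2.61, 2.43 and 2.28 FPKM in control to 1.52, 1.25 and 1.27 FPKM in Bcas2 cKO. The Bcas2 cKO libraries were the lower 3 (log2 fold change -0.55 with SE 0.11, limma adjusted p 0.019). The adjusted p was 0.053 without either control library 3 or 4, and 0.062 and 0.065 with Bcas2 cKO libraries 4 and 5 left out in turn. Esrra was 9.24, 9.31 and 8.15 FPKM in control against 10.4, 12.2 and 11.1 in Bcas2 cKO. Its groups did not overlap, higher in Bcas2 cKO, but it missed the threshold (log2 fold change 0.31, SE 0.09, limma adjusted p 0.061). Of 12 tested target genes of these receptors, 2 fell, none rose and 10 did not pass (median -0.07), beside 7.55% of all tested genes that fell. Sdha, an enzyme of the citric acid cycle, fell from 54.4 ± 3.95 to 40.9 ± 1.36 FPKM (limma adjusted p 0.025).

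Nr6a1, the orphan receptor GCNF of germ cells and early embryos, rose. It (ENSMUSG00000063972, chromosome 2, 38723370 to 38927688) was 2.30, 2.05 and 1.97 FPKM in control against 3.41, 3.62 and 3.17 in Bcas2 cKO. The groups did not overlap, and the log2 fold change was 0.50 (SE 0.09, limma adjusted p 0.017). The adjusted p was 0.058 without control library 4, 0.064 and 0.062 with Bcas2 cKO libraries 3 and 4 left out in turn, and 0.071 after rescaling without the hormone genes. The tested orphan receptors of subfamily 2 that follow did not pass the test. Nr2f6, a COUP-TF relative, was 7.44 to 8.33 FPKM in control against 8.87 to 10.4 in Bcas2 cKO with no overlap (log2 fold change 0.23, limma adjusted p 0.11). The testicular receptors Nr2c1 and Nr2c2 had log2 fold changes of 0.14 and -0.08. Exons of the antisense gene Ocel1 cover 54.4% of the exon bases of Nr2f6, and those of Mrps25 cover 30.7% of those of Nr2c2. No label gives the strand setting of the counting, so reads of these pairs cannot be told apart.

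The RXRs, the shared partners of many of these receptors, did not pass the test. Rxra was 11.9, 10.8 and 10.7 FPKM in control against 10.6, 8.93 and 11.96 in Bcas2 cKO, with overlapping groups (log2 fold change -0.08, SE 0.11, limma adjusted p 0.66). Rxrb was 13.9, 17.8 and 14.1 FPKM in control against 13.9, 11.9 and 14.6 in Bcas2 cKO (-0.17, SE 0.12, limma adjusted p 0.39). The sign of the Rxra value turned to positive (0.021) without Bcas2 cKO library 4.

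None of the hormone and vitamin receptors that pair with the RXRs passed the test. Vdr was 36.8, 47.5 and 42.95 FPKM in control against 45.04, 48.0 and 45.4 in Bcas2 cKO, and the groups overlapped (log2 fold change 0.13, SE 0.11, limma adjusted p 0.46). Thra was 15.2, 17.2 and 14.6 FPKM in control against 15.4, 16.6 and 18.3 in Bcas2 cKO (0.10, SE 0.10, limma adjusted p 0.54). Its sign turned to negative (-0.016) after rescaling without the hormone genes, and 5.70% of its exon bases overlap the antisense gene Nr1d1. Thrb, the second thyroid hormone receptor gene, was 1.75 to 2.09 FPKM in control against 1.28 to 1.67 in Bcas2 cKO, without overlap (-0.25, limma adjusted p 0.19). The retinoic acid receptor gene Rarg was 7.37, 8.29 and 7.91 FPKM in control against 8.16, 7.001 and 7.72 in Bcas2 cKO (-0.04, SE 0.08, limma adjusted p 0.79), a sign that turned (0.014) without Bcas2 cKO library 4. Rara was 3.54 to 5.10 FPKM in control against 2.92 to 4.12 in Bcas2 cKO (-0.31, limma adjusted p 0.21).

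Of 9 thyroid hormone receptor targets 7 were tested, of which 2 fell and none rose, beside 7.55% of all tested genes that fell. Atp2a2, the calcium pump SERCA2 of the endoplasmic reticulum, fell from 337.0 ± 1.34 to 159.8 ± 9.83 FPKM (log2 fold change -1.07, limma adjusted p 0.0021) and Gpd2, the mitochondrial glycerol phosphate dehydrogenase, by 0.38 on the log2 scale (limma adjusted p 0.041). For retinoic acid receptors, 2 targets outside the family were tested: Tgm2, a transglutaminase, rose from 1.40 ± 0.126 to 2.43 ± 0.124 FPKM and Dhrs3 did not pass. The vitamin D target Calb1, a calcium-binding protein and the 1 tested gene of its list, was 7.84 ± 0.811 and 7.52 ± 0.930 FPKM (limma adjusted p 0.77).

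Hnf4a and Hnf4g regulate genes of liver, gut and islet, and neither passed the test. Hnf4a was 9.17, 5.16 and 6.50 FPKM in control against 10.1, 11.04 and 8.78 in Bcas2 cKO. Control library 1 lay within the Bcas2 cKO range and the other control libraries below it (log2 fold change 0.49, SE 0.18, limma adjusted p 0.12; 0.026 without control library 1). Hnf4g was 2.06 to 3.26 FPKM in control against 2.25 to 2.54 in Bcas2 cKO (-0.08, limma adjusted p 0.74). Of the 6 tested HNF4A targets, 2 fell, none rose and none had a positive fold change (median -0.34), beside 7.55% of all tested genes that fell. Slc2a2, the glucose transporter GLUT2, had 194.6, 193.7 and 211 FPKM in control against 104.5, 108 and 119.8 in Bcas2 cKO (-0.85, SE 0.10, limma adjusted p 0.0037). Kcnj11, the pore of the ATP-sensitive potassium channel, fell from 58.5 ± 2.68 to 43.2 ± 3.08 FPKM (limma adjusted p 0.022). Both are also beta cell genes, and the share of reads from beta cell markers fell with the group, as given above. Slc2a2 is itself among those markers, so its fall is not separate from that share.

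The RAR-related orphan receptors are constitutive activators that share sites with the clock repressors REV-ERB. Rora was 4.78 to 5.73 FPKM in control against 2.96 to 4.76 in Bcas2 cKO, a lower level without overlap that missed the threshold (log2 fold change -0.30, limma adjusted p 0.22). Of their 5 tested targets the clock gene Cry1 rose, from 3.14 ± 0.472 to 5.68 ± 0.961 FPKM (log2 fold change 0.69, limma adjusted p 0.021), and 4 did not pass.

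The balance within pairs of related receptors is given as a description, because the pairs were chosen with the values known. Within each library, FPKM of Nr1h2 was 5.04, 6.70 and 7.03 times that of Nr1h3 in control and 14.2, 13.8 and 16.98 times in Bcas2 cKO. For Esrra over Esrrg the ratio was 3.54 to 3.82 in control against 6.86 to 9.69 in Bcas2 cKO, and for Ppard over Pparg 2.26 to 2.83 and 4.12 to 5.63. Nr3c1 over Nr3c2 was 4.14 to 4.51 in control against 4.90 to 6.50 in Bcas2 cKO, and Hnf4a over Hnf4g 1.99 to 3.71 and 3.90 to 4.69. In these 5 pairs every Bcas2 cKO ratio exceeded every control ratio, whereas Thra over Thrb overlapped (7.27 to 9.81 and 9.25 to 13.1). In each of the 6 pairs the first gene was the more abundant in every library.

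**Figure D4:**
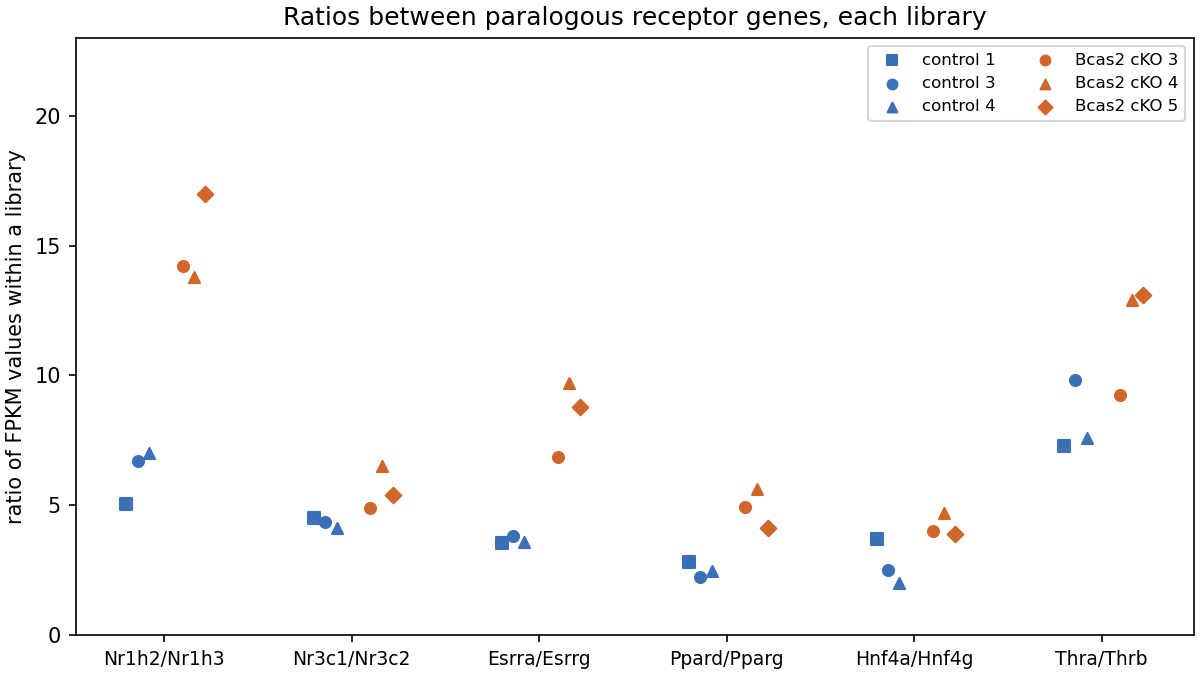
Ratio of FPKM values within each library for 6 pairs of related nuclear receptor genes, with control in blue and Bcas2 cKO in orange. The groups separate for every pair except Thra over Thrb, and the Nr1h2 to Nr1h3 ratio reaches 16.98 in Bcas2 cKO library 5 against at most 7.03 in control.

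The 18 receptor genes below the filter had means of 0 to 0.530 FPKM, and 6 of them had at least 10 reads per library on average. Nr5a2 (LRH-1), a transcription factor of acinar cells, had 24, 28 and 26 reads in control libraries 1, 3 and 4 and 81, 58 and 88 reads in Bcas2 cKO libraries 3, 4 and 5, or 0.257 to 0.352 and 0.559 to 0.865 FPKM without overlap. Without a filter it missed the threshold (log2 fold change 0.40, limma adjusted p 0.11). The acinar share of reads was higher in the same libraries, and all 8 tested acinar targets of NR5A2 had positive fold changes (median 1.58). These targets are acinar genes and Rbpjl is also among the acinar markers, so they give no measure of NR5A2 apart from that share. Of the 8 targets, Rbpjl, a subunit of the acinar PTF1 complex, passed the test (1.05, SE 0.27, limma adjusted p 0.046). Esr1 (estrogen receptor alpha) had 8, 0 and 9 reads in control and 83, 23 and 55 reads in Bcas2 cKO, again without overlap and not past the test (limma adjusted p 0.16 without a filter). Nr2f2, a COUP-TF of vessel and stromal cells, had 41 to 66 reads in control against 66 to 113 in Bcas2 cKO, and its FPKM values overlapped.

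The pregnane X receptor gene Nr1i2 had 2 to 13 reads in control and 11 to 31 reads in Bcas2 cKO, Ppara 4 to 18 and 17 to 26, and Nr2f1 3 to 10 and 12 to 21. The remaining 12 genes had under 10 reads per library on average. Of these, Nr0b2 (SHP), Rxrg, Nr2e3, Rarb, Esr2, Esrrb, Nr1i3, Nr2e1, Rorb and Nr5a1 had 0 to 14 reads in any library. Nr0b1 (DAX1) and Nr1h5 had 0 reads in all 6 libraries. A count of 0 allows up to 3 reads, which is 0.123 FPKM for Nr0b1 and 0.0784 FPKM for Nr1h5 in control library 3, where this limit is highest, with counting error only.

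Receptors act through coactivators and corepressors, and most genes of both lists did not pass the test. Of 16 tested coactivators, Crebbp, a histone acetyltransferase, rose from 5.28 ± 0.533 to 7.04 ± 0.258 FPKM (log2 fold change 0.36, limma adjusted p 0.037) and none fell. Of 10 tested corepressors, 2 rose and none fell, beside 6.97% of all tested genes that rose. Gps2, a subunit of the NCOR and SMRT corepressor complex, was 20.4, 24.9 and 19.95 FPKM in control against 38.6, 40.6 and 42.7 in Bcas2 cKO (0.88, SE 0.10, limma adjusted p 0.0040). Tob1, an antiproliferative protein also active in mRNA decay, rose from 54.1 ± 14.2 to 144.6 ± 11.97 FPKM (1.43, limma adjusted p 0.0065).

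Genes that make, carry or clear the ligands were mostly low. Of 4 tested retinoid genes none passed the test, and Rbp4, the plasma retinol carrier, was 124 ± 32.8 and 113 ± 13.4 FPKM, while Rdh11, a retinal reductase, was 4.02 ± 0.361 and 4.10 ± 0.425 FPKM. Of 7 tested genes of thyroid hormone and steroid metabolism, Slc16a10, a transporter of aromatic amino acids and thyroid hormones, fell from 52.8 ± 1.91 to 39.1 ± 2.57 FPKM (log2 fold change -0.43, limma adjusted p 0.019). Of 4 tested estrogen receptor targets none passed, with Xbp1, a transcription factor of the unfolded protein response, at 96.7 ± 5.48 and 112.8 ± 18.1 FPKM and Ctsd, a lysosomal protease, at 56.8 ± 5.01 and 44.8 ± 2.61 FPKM.

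Over the 17 lists together, 124 genes outside the family were tested, of which 12 rose and 9 fell. That is 16.9%, close to the 14.5% of all genes tested, with a median log2 fold change of 0.03. Of the 20 called list genes that the rule for named genes picked, 8 stayed called whichever library was left out: Tob1, Gps2, Dusp1, Nfkbia, Per1, Ehhadh, Atp2a2 and Slc2a2. St13 and Slc16a10 kept theirs in 3 of the 6 fits and the other 10 in 1 or 2.

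**Figure D5:**
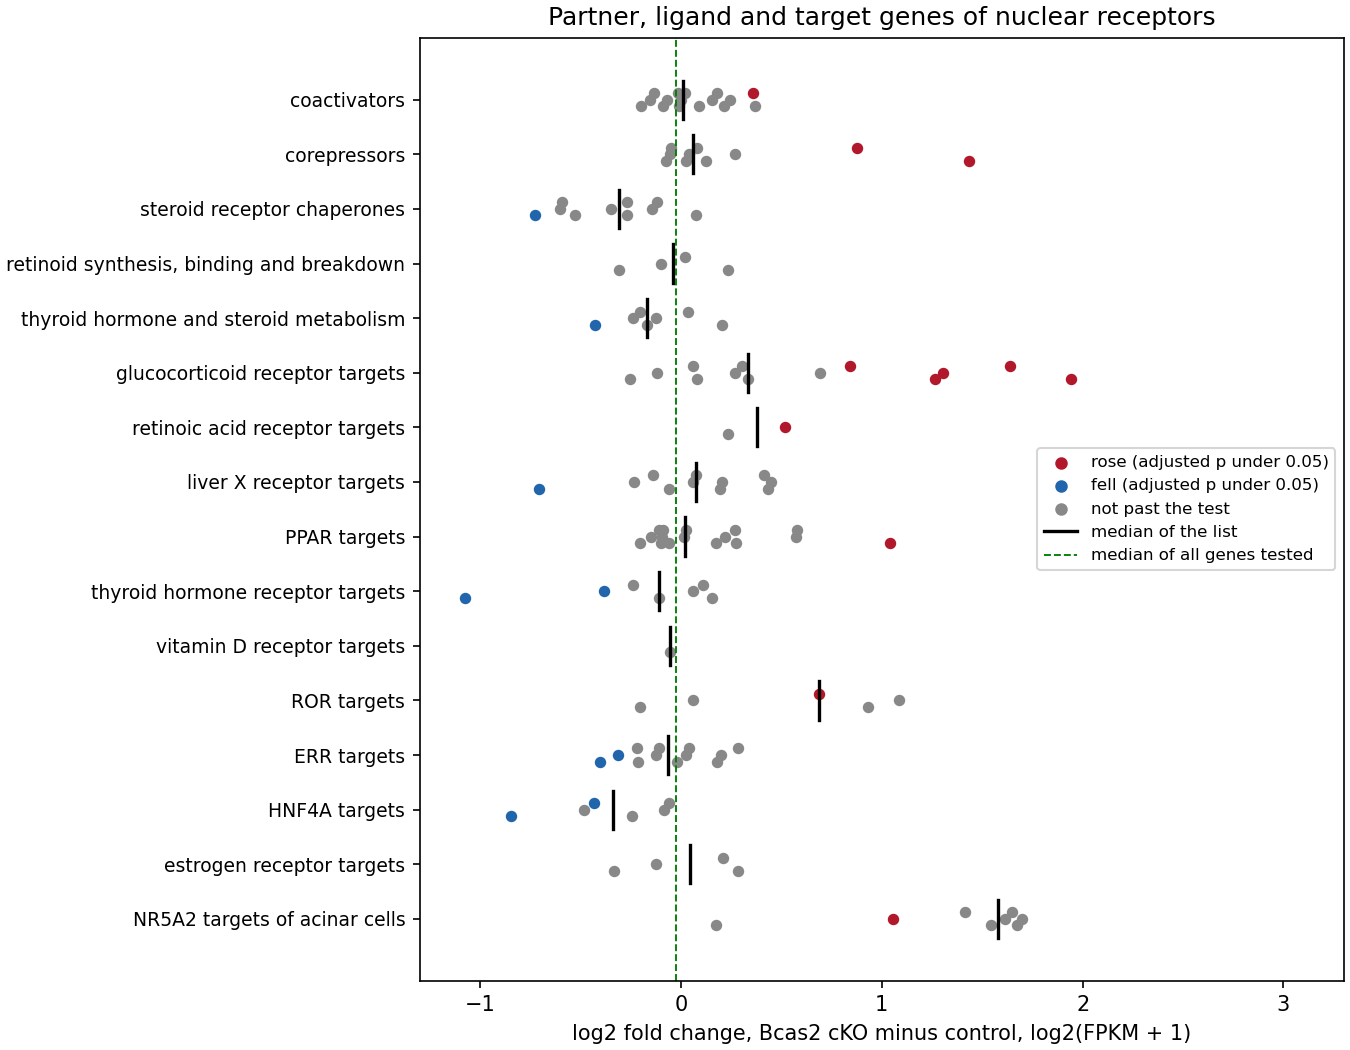
Log2 fold change, Bcas2 cKO minus control on the log2(FPKM + 1) scale, of the tested partner, ligand and target genes of nuclear receptors, 1 row per list, with red for rises, blue for falls and grey for genes not past the test. Black bars are list medians, which reach 1.58 for the acinar targets of NR5A2 and 0.34 for glucocorticoid receptor targets; the dashed line is the median of all genes tested, -0.03.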

How the data were processed

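Islet RNA (Trizol) was turned into SMARTer mRNA-seq libraries, per the labels' protocols. The genome build was GRCm38 (mm10), per the submitters' processing notes; no aligner, counting program or strand setting is given in the sources used here. The deposited values are FPKM, 1 column per library, made by the authors, per the file headers. FPKM times gene length, times a depth inferred per library from the steps of the values (0.890 to 1.11 times the reads on genes), gave whole reads within 0.01 of a read, which were used for depth and floors. Of the members, 40 of 42 had the coordinates of GENCODE M21. Genes whose mean reached 1 FPKM were tested on log2(FPKM + 1), which understates fold changes of low genes, with limma 3.58.1 in R 4.3.3 (eBayes with trend), at a Benjamini-Hochberg adjusted p of 0.05 over 13723 genes. Alternatives changed the pseudocount (0.1), filter, scaling, weights, variance model, fold minimum, reads (voom), block and libraries. Members and lists were chosen with earlier results of these data known. Genes described were the called members, members without overlap and with an absolute log2 fold change of at least 0.5, the 10 highest members, and up to 4 called genes per list, or the 2 highest where none was called. Promoter windows are from RefSeq; 37 of 42 members had 1. Some genes and sequences that these choices cover are not reported here.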

Additional observations from a re-analysis of the deposited data

How the results depend on the processing

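The 7 called receptor genes kept their direction in every alternative that tested them. The number of receptor genes called, not always the same ones, was 6 to 9 under the other pseudocount, 4 scalings, library weights, other variance models and voom. It was 1 with no filter (Nr1h2), 3 over genes of at least 5 FPKM, 0 when an absolute log2 fold change of 1 was also required, and 1 to 7 when a library was left out. Of all genes, 1993 were called, against 1144 with no filter, 407 with the fold minimum, and 878 to 1950 without a library; rescaling without the hormone genes gave 613 rises and 1247 falls against 957 and 1036. Of the partner and target genes, 21 were called, against 33 with voom, 8 with the fold minimum, and 8 to 28 without a library. With a replicate block on the shared numbers 3 and 4, 1 receptor gene was called (Hnf4a, limma adjusted p 0.046). The counts were then 538 genes in all and 9 partner and target genes. The deviations of same-numbered libraries correlated at -0.15 and 0.05, and those of unlike-numbered libraries at -0.13 to 0.12. With so few libraries these values cannot decide whether any are paired, and no pairing is known. Esrra passed under the 5 FPKM filter (adjusted p 0.045), with median-of-ratios scaling (0.044), quantile normalization (0.045) and library weights (0.047). Signs turned for Thra (-0.016, rescaled without the hormone genes), Rxra (0.021) and Rarg (0.014, both without Bcas2 cKO library 4), with the cause not tested; leaving out 1 library gave -0.17 to 0.021 for Rxra and -0.084 to 0.014 for Rarg. The 18 receptor genes below 1 FPKM were not tested, and 12 of them had under 10 reads per library on average.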

Other observations

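Receptor genes outside the rule of selection differed widely in response. Nr4a1, an early-response orphan receptor, was 31.03, 94.5 and 42.9 FPKM in control libraries 1, 3 and 4 and 267.5, 380.4 and 282 FPKM in Bcas2 cKO libraries 3, 4 and 5 (log2 fold change 2.58, limma adjusted p 0.0086). Nr4a2 rose from 6.78 ± 3.71 to 34.4 ± 7.96 FPKM (limma adjusted p 0.011). The clock repressor genes Nr1d1 and Nr1d2, which share binding sites with the RORs, were 46.5 ± 22.2 and 64.5 ± 12.9 FPKM, and 40.6 ± 14.1 and 30.5 ± 3.25 FPKM, and missed the threshold (adjusted p 0.29 and 0.41). The progesterone receptor gene Pgr was at most 0.0520 FPKM in any library.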
